A study of Mus musculus with 16 samples.

Results

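Mucins are long proteins whose serine- and threonine-rich repeats carry dense O-linked glycans. Gel-forming mucins are secreted, and Muc2, made by goblet cells, is the main building block of the colonic mucus layer. Transmembrane mucins (Muc1, Muc3, Muc4, Muc13, Muc16 and Muc20 here) stay anchored in the apical membrane and form part of the glycocalyx of the surface cells. The intestinal mucins described here are these 7 genes, taken by symbol, of 54123 genes summed from the deposited transcript tables. All 7 were among the 15289 genes with enough reads to be tested, but Muc16 and Muc20 passed the filter on low counts only through the groups in which they were high. A gene let in that way had to differ, so their values are given as a description with no test, and counts of mucins that passed are over the other 5.

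RNA was sequenced from 16 libraries of mouse colon organoids in 8 groups of 2: organoids of the proximal or the distal colon, transduced with Scramble-sgRNA (control) or Cdx2-sgRNA, with either WENR-plus or WENR-minus as the last medium. Every organoid came from female mice, aged 8 weeks, that were heterozygous for the Cre-inducible BRAFV600E allele (Braftm1Mmcm) and for a tdTomato reporter. These alleles were shared by all groups, controls included, and the protocols of these libraries name the sgRNA vectors and no Cre. Cdx2 is a homeobox transcription factor of the intestinal epithelium. WENR-plus supplies Wnt3a, EGF, Noggin and R-spondin 1, factors that maintain intestinal stem cells in culture, and WENR-minus lacks all of them. Cultures of 4 months were given WENR-plus for 2 days before the final 3 days in one medium or the other. The organoids were derived from 2 mice. The Cdx2-sgRNA organoids each grew from a single cell with a frameshift in both copies of Cdx2, so that a replicate of those groups is 1 clone, while no such step is described for Scramble-sgRNA. Effects of Cdx2-sgRNA, and their difference between regions, can therefore not be told apart from those of single-cell cloning. With 2 libraries in a group, a p-value rests on the spread between these cultures, shared over all 8 groups. Libraries of the 2 media with the same line and replicate number were taken to share a culture. The main fit does not pair them.

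Libraries held 12465194 to 18922143 estimated reads. The label colon was checked against 6 epithelial genes (Epcam, Cdh1, Krt8, Krt18, Vil1 and Cdh17), all of which had reads in every group, with sums of 2390 to 15600 CPM (counts-per-million of reads, scaled between libraries by TMM). In the proximal Cdx2-sgRNA lines Cdh17, the intestinal cadherin, was lower than in Scramble-sgRNA by edgeR, with log2 fold changes of −7.56 (adjusted p 4.75e-08) in WENR-minus and −5.53 (adjusted p 4.58e-07) in WENR-plus. Epcam (−1.94) and Vil1 (−1.61) fell there in WENR-minus. Genes of fibroblasts, endothelium and immune cells summed to at most 10.4 CPM. Cdx2 RNA, the target, was present in all libraries, at 515 to 3269 reads. In proximal organoids it stood at 142 and 127 CPM in Scramble-sgRNA and at 29.9 and 33.3 CPM in Cdx2-sgRNA in WENR-plus, and at 203 and 151 against 73.9 and 71.0 CPM in WENR-minus. Its log2 fold change was −2.09 (adjusted p 5.48e-05) and −1.29 (adjusted p 0.000679), and the groups did not overlap. In distal organoids it stood at 76.8 and 67.9 against 62.2 and 50.2 CPM in WENR-plus, and at 112 and 110 against 126 and 86.1 CPM in WENR-minus, with log2 fold changes of −0.36 (adjusted p 0.857) and −0.07 (adjusted p 0.876). A frameshift leaves a transcript that can still be counted, so the RNA is no check of the protein, and the part of the remaining Cdx2 in the mucin changes was not tested.

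The 3 genomic stretches shown here lie before the starts of Muc2, Muc13 and Muc3, the mucins that fell together in proximal Cdx2-sgRNA organoids. They are from RefSeq on GRCm38.p6, on each gene's own strand, 5′ to 3′, and capitals mark matches on either strand to ATAAA, the core that caudal-type homeodomains such as Cdx2 prefer, or to CAAAGTCCA, a consensus for HNF4. The Muc2 stretch is chr7:141690090-141690339, the 250 bases before the first exon. That of Muc13 is chr16:33794239-33794366, the 128 bases before the start of its main transcript, inside the first intron of the other one. That of Muc3 is chr5:137166047-137166296, the 250 bases before the RefSeq start, which lies 16724 bases upstream of the gene model that the reads were counted on.
Muc2: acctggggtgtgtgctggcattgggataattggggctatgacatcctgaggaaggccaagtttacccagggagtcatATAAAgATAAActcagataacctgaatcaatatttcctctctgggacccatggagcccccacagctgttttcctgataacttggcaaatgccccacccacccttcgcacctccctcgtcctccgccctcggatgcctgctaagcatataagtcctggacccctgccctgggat
Muc13: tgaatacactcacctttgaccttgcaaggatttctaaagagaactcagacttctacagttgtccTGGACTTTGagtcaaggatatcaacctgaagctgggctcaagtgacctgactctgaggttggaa
Muc3: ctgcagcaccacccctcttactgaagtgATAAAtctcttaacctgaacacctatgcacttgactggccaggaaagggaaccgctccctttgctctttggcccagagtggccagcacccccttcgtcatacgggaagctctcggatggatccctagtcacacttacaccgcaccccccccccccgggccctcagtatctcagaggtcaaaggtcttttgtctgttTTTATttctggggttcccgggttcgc

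In the Muc2 stretch 2 copies of ATAAA begin 173 and 167 bases before the start. RefSeq windows were found for all 7 mucins, 8 windows in all since Muc13 has 2 starts. In their 250 upstream bases, ATAAA occurred in 5 of the 8, those of Muc1, Muc2, Muc3, Muc4 and the outer start of Muc13, and it was not found in those of Muc16, Muc20 or the inner start of Muc13. It also occurred in 37.3% of all 32851 windows, so that a match is common. CAAAGTCCA occurred in 1 of the 8 (the inner start of Muc13) and in 0.384% of all windows. A match of letters is a description and shows no binding.

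Muc2 lies on chromosome 7 at 141690340-141754693 (plus strand, GRCm38). Its gene model consists of 8 transcripts of 241 to 2926 bases, far shorter than a full mucin mRNA, and most reads were assigned to a 5′ model of 2690 bases (38.5%) and a 3′ model of 2926 bases (47.6%). Both ends were read alike. The 5′ to 3′ ratio of TPM (transcripts-per-million, the level per length) was 0.804 to 1.09 in the 12 libraries with at least 200 reads at each end, and 0.779 to 1.27 over all 16. Muc13 (chromosome 16, 33794037-33819934, plus strand) had 96.2% of its reads on the transcript that starts at 33794367. Muc3 (chromosome 5, 137134922-137149322, minus strand) was counted on a model of 1853 bases that holds its 3′ part alone. Muc4 (chromosome 16, 32735886-32782391, plus strand) and Muc20 (chromosome 16, 32777419-32797435, minus strand) overlap at their 3′ ends on opposite strands. The kit keeps the strand, and Salmon was left to detect the library type itself. Of the Muc20 reads 88.2% were assigned to a transcript of 2299 bases that ends at 32786040, outside the overlap. Muc1 lies on chromosome 3 at 89229057-89233381 (plus strand) and Muc16 on chromosome 9 at 18495455-18674530 (minus strand).

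**Figure D1:**
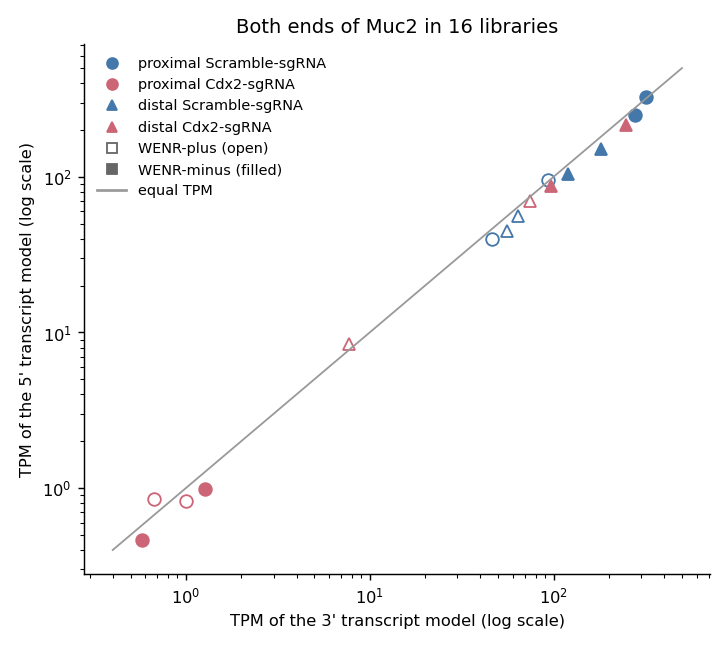
TPM of the 5′ transcript model of Muc2 (vertical) against that of its 3′ model (horizontal), both on log scales, with 1 point per library and a line where both are equal. All 16 libraries lie near the line, the 4 of proximal Cdx2-sgRNA organoids at 0.574 to 1.27 TPM of the 3′ model.

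Per length, Muc13 was the most abundant of the 7 mucins in 14 of 16 libraries. Its TPM ranged from 5.36 to 1704, and in proximal Scramble-sgRNA organoids its mean was 466 ± 64.1 (SD, n = 2) in WENR-plus and 862 ± 66.8 in WENR-minus. The other 2 libraries, those of proximal Cdx2-sgRNA organoids in WENR-minus, were led by Muc1. Muc2 is compared here by its 3′ model alone, since a sum over partial models would count 1 mRNA several times. Read so, it ranked second in 7 libraries, and its mean TPM was 69.9 ± 33.7 in proximal and 60 ± 5.38 in distal Scramble-sgRNA organoids in WENR-plus. In those groups Muc4 stood at 16.6 ± 1.85 and 62.2 ± 0.325, and Muc3 at 15.5 ± 4.1 and 15.8 ± 5.42. The distal TPM of Muc2 and Muc4 therefore differed by less than their spread. In WENR-minus Muc2 was at 300 ± 28.8 TPM and Muc3 at 215 ± 32 in proximal Scramble-sgRNA organoids, whereas in distal ones Muc3 was at 281 ± 7.14 and Muc2 at 151 ± 43.4. In proximal Cdx2-sgRNA organoids in that medium, Muc1 (55.8 ± 61.5), Muc4 (14.8 ± 12.2) and Muc13 (7.2 ± 2.6) did not differ beyond their spread. Muc1 was at most 4.27 TPM in every Scramble-sgRNA library. Muc16 and Muc20 were at most 0.401 and 0.0714 TPM there.

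**Figure D2:**
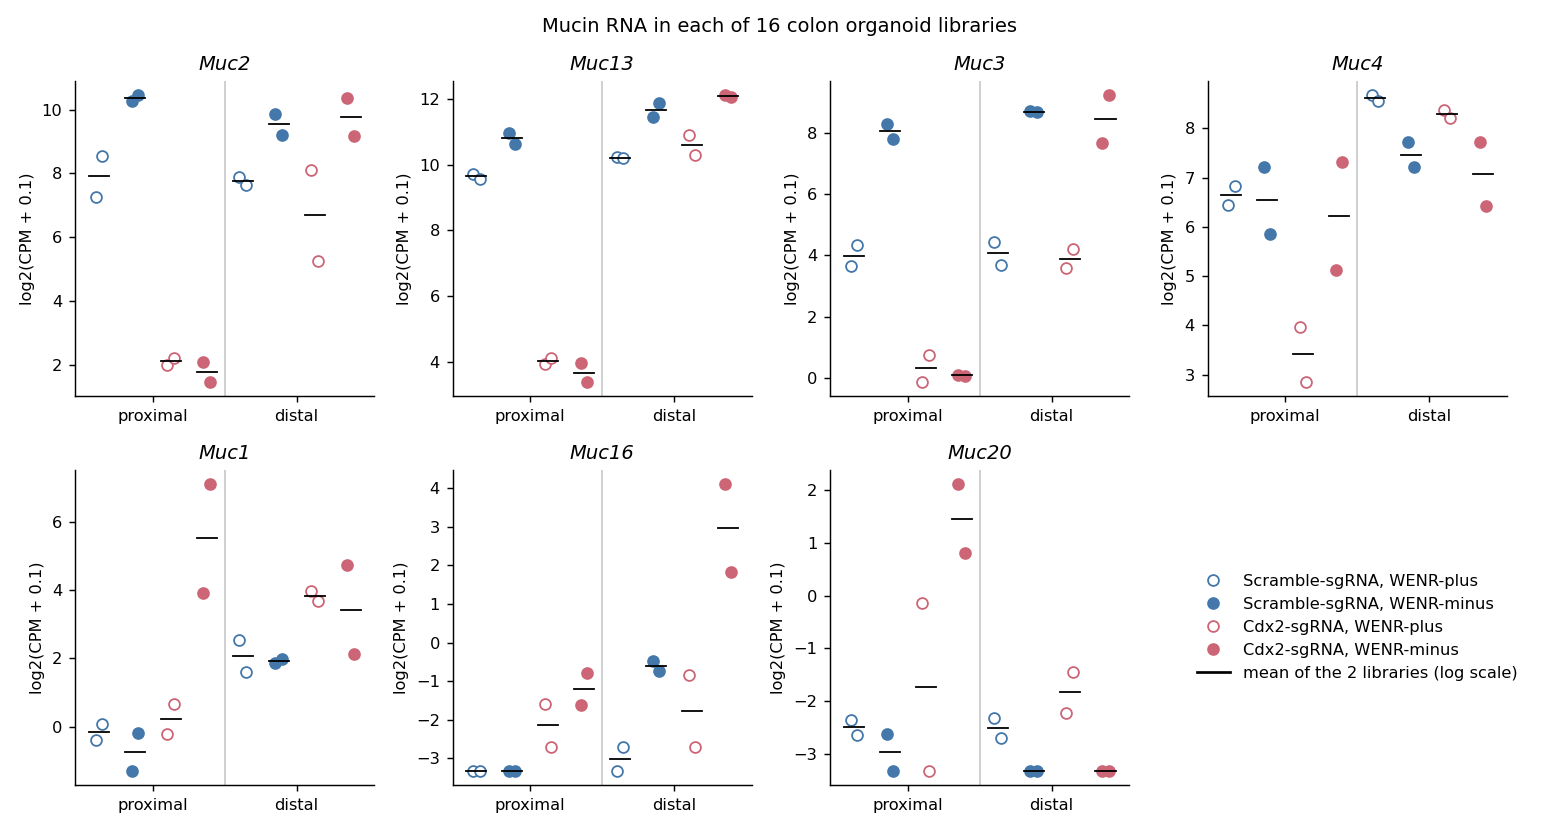
TMM-scaled CPM of each mucin on the scale log2(CPM + 0.1) (vertical) in the 16 libraries, by region, sgRNA and medium, with 1 point per library and bars at the mean of the 2 log values. Muc2, Muc13 and Muc3 are low in all 4 libraries of proximal Cdx2-sgRNA organoids (for Muc13, 10.3 to 17.1 CPM against 762 CPM or more elsewhere), whereas Muc1, Muc16 and Muc20 are highest in Cdx2-sgRNA libraries.

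The effect of Cdx2-sgRNA was first examined in proximal organoids. In WENR-minus, 3 of the 5 tested mucins were lower and 1 was higher in Cdx2-sgRNA than in Scramble-sgRNA organoids (adjusted p under 0.05 and log2 fold change over 1 in either direction). Among all tested genes 12.1% were lower and 9.04% higher. In WENR-plus 4 were lower and none was higher, beside 8.94% and 6.93% of all genes. Muc2, Muc13 and Muc3 fell in both media.

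Muc2, the gel-forming mucin, had 20025 and 26792 reads in the proximal Scramble-sgRNA libraries in WENR-minus and 56 and 50 in the Cdx2-sgRNA libraries. In WENR-plus the values were 3205 and 6342 against 67 and 86. The groups did not overlap in either medium, and the 4 Cdx2-sgRNA values were close to each other. The log2 fold change was −8.61 (SE 1.00, with adjusted p at 0.000102) in WENR-minus and −5.97 (SE 0.89, with adjusted p at 0.000874) in WENR-plus. In bulk RNA, fewer goblet cells and less Muc2 RNA per goblet cell cannot be told apart.

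Muc13, a transmembrane mucin of the apical surface of gut epithelium, had 32302 and 30666 reads in Scramble-sgRNA against 206 and 195 in Cdx2-sgRNA in WENR-minus. In WENR-plus it had 17672 and 12882 against 262 and 323. This was the change with the smallest error among the mucins, at a log2 fold change of −7.14 (SE 0.32, with adjusted p at 1.02e-07) in WENR-minus and −5.64 (SE 0.30, with adjusted p at 6.23e-07) in WENR-plus.

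Muc3, a membrane mucin of the enterocyte brush border, had 5038 and 4323 reads against 13 and 18 in WENR-minus, and 262 and 337 against 14 and 30 in WENR-plus. The log2 fold change was −8.12 (SE 0.65, with adjusted p at 6.9e-06) in WENR-minus and −3.74 (SE 0.565, with adjusted p at 0.000931) in WENR-plus. Its Cdx2-sgRNA level was as low in both media, so that the larger fold in WENR-minus went with a higher control.

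Muc4, a large membrane mucin whose EGF-like domains can bind ErbB2, passed in WENR-plus alone. It had 1832 and 1917 reads in Scramble-sgRNA and 268 and 135 in Cdx2-sgRNA libraries there, a log2 fold change of −3.15 (SE 0.72, with adjusted p at 0.00905). Without Cdx2-sgRNA replicate 2 it was −2.69 (adjusted p 0.0744) and no longer passed. In WENR-minus the 2 groups overlapped, with 2403 and 1116 reads against 466 and 3005.

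Muc1, a membrane mucin of many simple epithelia, was higher in the mutant organoids in WENR-minus. It had 5 and 15 reads in the Scramble-sgRNA libraries and 203 and 2602 in the Cdx2-sgRNA libraries. The log2 fold change was 7.08 (SE 1.20, with adjusted p at 0.00117), but its Cdx2-sgRNA libraries lay far apart, at 15.1 and 138 CPM. In WENR-plus the groups were 14 and 16 against 13 and 28 reads. Muc20, a small membrane mucin described as a partner of the Met receptor, had 1 and 0 reads against 57 and 31 in WENR-minus. This is at least 17.2-fold higher, taking 3 reads per library as the level of the control. Muc16, the membrane mucin known as CA125, had 0 reads in all 4 proximal Scramble-sgRNA libraries, which allows up to 3 reads per library (0.159 to 0.213 CPM of its total). It had 1 to 9 reads in the proximal Cdx2-sgRNA libraries.

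Cell type markers moved with these changes. The 7 goblet cell markers (Spdef, Tff3, Fcgbp, Clca1, Zg16, Agr2 and Spink4) summed to 715 to 6130 CPM in proximal Scramble-sgRNA libraries and to 33.6 to 69.8 CPM in proximal Cdx2-sgRNA libraries, with reads for all 7 in each group. Of the 7, 7 fell in WENR-minus and 5 in WENR-plus. The 3 enteroendocrine markers (Chga, Chgb and Neurod1), of the other main secretory type, summed to 49.8 to 175 CPM in proximal Scramble-sgRNA and to 0.687 to 1.78 CPM in proximal Cdx2-sgRNA libraries, and to 94.9 to 375 CPM in distal libraries. The summed 3 tuft cell markers (Dclk1, Trpm5 and Pou2f3) went the other way at low levels, but not as a set. They summed to at most 0.414 CPM in proximal Scramble-sgRNA libraries. In proximal Cdx2-sgRNA libraries they summed to 2.9 to 11.3 CPM in WENR-plus and 1.11 to 6.35 CPM in WENR-minus. Dclk1 was higher in WENR-plus (log2 fold change 5.77) and did not pass in WENR-minus (0.81, adjusted p 0.714 by edgeR). Trpm5 and Pou2f3 had too few reads to be tested. Pou2f3 was at least 19.6-fold higher in WENR-minus and at least 1.15-fold in WENR-plus. Trpm5 was at least 2.99-fold higher in WENR-plus and at most 3 reads in both groups in WENR-minus. The 7 colonocyte markers summed to 6780 to 10100 CPM in proximal Scramble-sgRNA organoids in WENR-minus and to 519 to 1590 CPM in Cdx2-sgRNA. In WENR-plus their sums overlapped, at 206 to 260 and 136 to 240 CPM. Of the 7, 5 fell in WENR-minus, and 3 fell and 1 rose in WENR-plus. Of 5 squamous keratins and regulators, Krt4 reached 19774 to 27708 reads in proximal Cdx2-sgRNA organoids in WENR-minus against 151 to 208 in Scramble-sgRNA, and Krt14 208 to 775 against 2 to 4. The defining basal genes Krt5 and Trp63 were at 0 reads and at 0 to 3 reads there, and Krt13 at 5 to 10. The squamous sum was 1480 to 1530 CPM in that group, 263 to 339 CPM in proximal Cdx2-sgRNA in WENR-plus, 30.5 to 77.2 CPM in distal Cdx2-sgRNA, and 2.62 to 42.1 CPM in Scramble-sgRNA libraries. Of the stem cell markers Smoc2 alone passed between the sgRNAs in proximal organoids, at −6.80 in WENR-plus and −3.73 in WENR-minus. Of the cycling cell markers Mki67 alone passed there, lower with Cdx2-sgRNA in WENR-plus (−1.24) and higher in WENR-minus (1.19). The part of these cell types in the mucin changes was not tested. The 6 gastric mucous genes summed to at most 4.76 CPM in any library. The highest sum was in proximal Cdx2-sgRNA organoids in WENR-minus, whose libraries stood at 0.742 and 4.76 CPM. There Tff1 was at least 12.9-fold and Gkn2 at least 2.88-fold higher than in Scramble-sgRNA, as a description. Muc5ac, Muc6 and Gkn1 had 0 reads in that group.

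**Figure D3:**
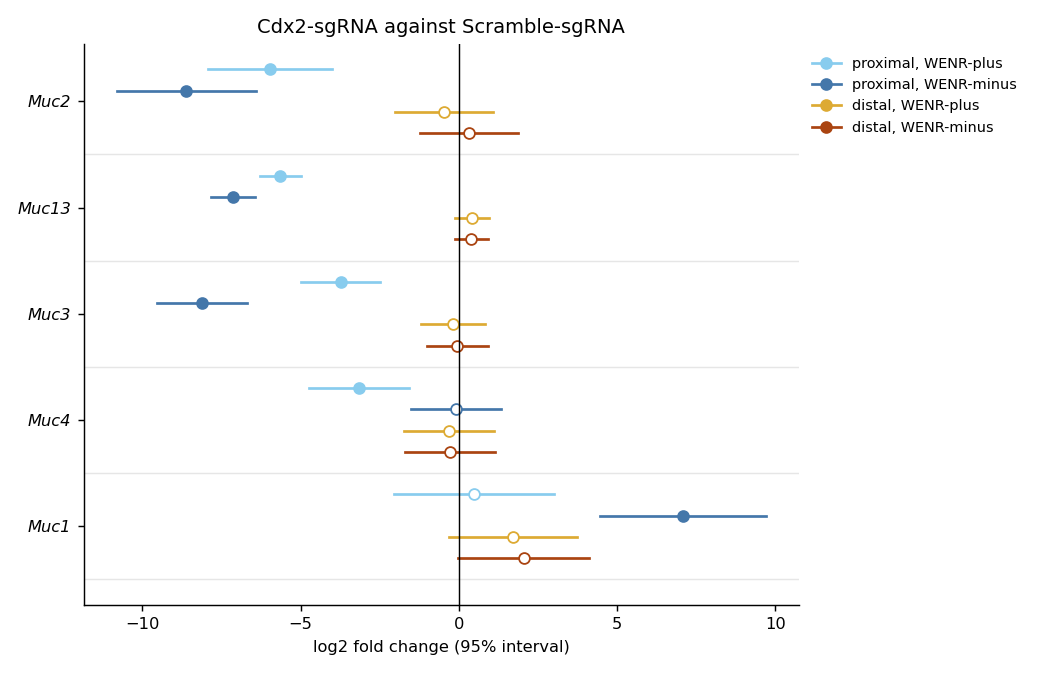
Log2 fold change of Cdx2-sgRNA over Scramble-sgRNA (horizontal) for 5 mucins with its 95% interval, in each region and medium. Filled points passed the test, and Muc16 and Muc20, which were not tested for the reason given, are not shown. Proximal values of Muc2, Muc13 and Muc3 lie between −8.61 and −3.74, and the distal values of these genes lie around 0. The distal values of Muc1 lie above 0 and did not pass.

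In distal organoids the group levels of Muc2, Muc13 and Muc3 with Cdx2-sgRNA were near those of the control, though single libraries of Muc2 and Muc3 were not. By edgeR 0 of 5 mucins passed in either direction in WENR-minus, beside 2.24% of all genes higher and 3% lower. In WENR-plus 0 of 5 passed, beside 0.262% of all genes. In each medium there were 0 of 5 at an unadjusted p under 0.05 and 0 by DESeq2. Muc2 had 12162 and 8178 reads in Scramble-sgRNA and 15625 and 6847 in Cdx2-sgRNA libraries in WENR-minus, and the groups overlapped. Its log2 fold change was 0.32 (95% interval −1.23 to 1.86). In WENR-plus it was −0.47 (−2.02 to 1.08), with 4768 and 3695 against 4827 and 723 reads, so that 1 library was low and the other was not. For Muc13 the log2 fold change was 0.40 (−0.13 to 0.93) in WENR-minus and 0.41 (−0.12 to 0.95) in WENR-plus, and both lower bounds lie far above the proximal values. For Muc3 it was −0.04 (−1.02 to 0.93) and −0.19 (−1.20 to 0.82). The direction of the Muc2 and Muc3 values turned when single libraries were left out, and none of them passed.

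Muc16 had 8 and 7 reads in distal Scramble-sgRNA and 203 and 41 in distal Cdx2-sgRNA libraries in WENR-minus. Both Cdx2-sgRNA values were above the controls, and they differed widely from each other. In WENR-plus Muc16 had 0 and 1 against 8 and 1 reads. Most Muc16 reads over all libraries (76.3%) were assigned to the transcript of 25437 bases. Muc1 had 46 and 54 reads against 312 and 51 in WENR-minus, and 114 and 54 against 273 and 241 in WENR-plus. In WENR-plus both Cdx2-sgRNA values lay above both controls, yet neither log2 fold change passed (2.05, adjusted p 0.199, and 1.72, adjusted p 0.851). Muc20 had at most 5 reads in any distal library.

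The difference between the regions was tested directly, by subtracting the distal from the proximal effect of Cdx2-sgRNA. In WENR-minus 4 of 5 mucins passed, where 14.3% of all genes did. The difference in log2 fold change was −8.93 for Muc2 (SE 1.18, with adjusted p at 0.000594), −8.08 for Muc3 (SE 0.76, with adjusted p at 5.93e-05), −7.54 for Muc13 (SE 0.38, with adjusted p at 6.14e-07) and 5.03 for Muc1 (SE 1.45, with adjusted p at 0.0362). In WENR-plus Muc2 (−5.49, adjusted p 0.0137), Muc3 (−3.55, adjusted p 0.0161) and Muc13 (−6.05, adjusted p 5.08e-06) passed, where 4.98% of all genes did. Muc4 did not pass there by edgeR but was called by DESeq2. The difference of Muc1 did not pass without proximal Cdx2-sgRNA replicate 2, when it was 2.70 (adjusted p 0.153). It was also lost without either proximal Scramble-sgRNA library (adjusted p 0.127 and 0.0699), either distal Scramble-sgRNA library (0.0668 and 0.0963) or distal Cdx2-sgRNA replicate 2 (0.08), and in a fit of the compared libraries alone (0.0935). In WENR-plus, Muc2 lost its call without proximal Scramble-sgRNA replicate 2, proximal Cdx2-sgRNA replicate 2 or distal Scramble-sgRNA replicate 2 (adjusted p 0.051, 0.0557 and 0.0724), and in a fit of the compared libraries alone (0.0636). Without distal Cdx2-sgRNA replicate 1 its difference was −3.42 and still passed (adjusted p 0.0332). Muc3 lost its call without proximal Cdx2-sgRNA replicate 1, proximal Scramble-sgRNA replicate 2 or distal Scramble-sgRNA replicate 2 (adjusted p 0.0563, 0.0614 and 0.0715). Muc13 passed in both media without any single library.

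Levels were then compared between regions within each sgRNA. In Scramble-sgRNA organoids no mucin passed in WENR-minus (6.08% of all genes did) or in WENR-plus (1.75% did) by edgeR. At an unadjusted p under 0.05 there were 2 of 5 in WENR-minus and 3 in WENR-plus, and DESeq2 called 1 in each (Muc1 in WENR-minus and Muc4 in WENR-plus). Muc13 was lower in proximal than in distal organoids in WENR-minus by a log2 fold change of −0.88 (SE 0.24, with adjusted p at 0.0427), which is under the limit on size. Muc4 stood at 87.5 and 113 CPM in proximal and at 407 and 378 CPM in distal organoids in WENR-plus. The groups were well apart but the log2 fold change of −1.97 (SE 0.67) had an adjusted p of 0.193. Muc1 showed log2 fold changes of −2.72 in WENR-minus (adjusted p 0.159) and −2.42 in WENR-plus (adjusted p 0.329), with 5 to 16 reads in proximal and 46 to 114 in distal libraries. The difference of the region effect between media passed for 0 of 5 by edgeR, with 0 at an unadjusted p under 0.05, 0 by DESeq2 and 0.0719% of all genes.

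In Cdx2-sgRNA organoids the regions stood far apart. In WENR-plus 5 of 5 mucins were lower in proximal organoids, beside 9.57% of all genes lower and 7.4% higher: Muc2 (log2 fold change −5.22), Muc13 (−6.62), Muc3 (−3.64), Muc4 (−4.79) and Muc1 (−3.65). Muc4 had 268 and 135 reads in proximal and 5780 and 5616 in distal libraries, with an adjusted p of 0.00118. For Muc1 the call was lost without any 1 of the 4 libraries (adjusted p 0.0513 to 0.108), and for Muc2 the value was −3.14 without distal replicate 1. In WENR-minus Muc2 (−8.14), Muc13 (−8.42) and Muc3 (−8.71), 3 of 5, were lower in proximal organoids and none was higher, beside 16.5% and 18.1% of all genes. Muc16 had 3 and 9 reads in proximal and 203 and 41 in distal libraries, whereas Muc20 had 57 and 31 in proximal and 0 in both distal libraries. Muc1 was then on the other side, at 2.32 (adjusted p 0.0534). It was at −0.049 without proximal replicate 2, and it passed without proximal replicate 1 (3.17, adjusted p 0.00647), without distal replicate 1 (4.16, adjusted p 0.0181) and by DESeq2 (2.30, adjusted p 0.0195). These comparisons use the same Cdx2-sgRNA libraries as those above.

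The response to the medium was examined next, as WENR-minus minus WENR-plus. In proximal Scramble-sgRNA organoids 3 of 5 mucins rose and none fell, beside 8.73% and 8.24% of all genes. Muc3 went from 12.5 and 19.9 CPM to 312 and 225 CPM, a log2 fold change of 4.05 (SE 0.51, with adjusted p at 0.000428). Muc13 went from 844 and 762 CPM to 2002 and 1598 CPM, a log2 fold change of 1.16 (SE 0.24, with adjusted p at 0.00506). Muc2 went from 153 and 375 CPM to 1241 and 1396 CPM, a log2 fold change of 2.32 (SE 0.74, with adjusted p at 0.0352), which was lost without any 1 of the 4 libraries (adjusted p 0.0575 to 0.196).

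In distal Scramble-sgRNA organoids Muc3 and Muc13 rose, 2 of 5, and none fell, beside 12.2% and 14.2% of all genes. Muc3 went from 21.6 and 12.8 CPM to 423 and 408 CPM (log2 fold change 4.59, adjusted p 9.12e-05). Muc13 went from 1201 and 1180 CPM to 2821 and 3811 CPM (1.48, adjusted p 0.00076). Muc2 stood at 239 and 199 CPM in WENR-plus and at 936 and 586 CPM in WENR-minus. The groups did not overlap, and the log2 fold change of 1.80 (SE 0.73) had an adjusted p of 0.0682, or 0.00297 with a block for each culture. Muc16 went from 0 and 1 to 8 and 7 reads, at least 3.59-fold higher. In distal Cdx2-sgRNA organoids 3 of 5 rose and none fell, beside 14.9% and 18.1% of all genes: Muc2 (2.59, adjusted p 0.014), Muc3 (4.74, adjusted p 3.49e-05) and Muc13 (1.46, adjusted p 0.000526). Muc16 went from 8 and 1 to 203 and 41 reads. Muc2 did not pass without WENR-minus replicate 1 (1.86, adjusted p 0.0982) or in a fit of the compared libraries alone (2.56, adjusted p 0.0792), and it was 4.70 without WENR-plus replicate 1.

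In the main fit Muc4 passed in neither distal line. Its distal CPM was 407 and 378 in WENR-plus and 210 and 148 in WENR-minus in Scramble-sgRNA, and 331 and 297 against 211 and 85.4 in Cdx2-sgRNA organoids. The values were lower in WENR-minus in all 4 distal cultures. Neither log2 fold change passed (−1.13, adjusted p 0.193, and −1.09, adjusted p 0.198), nor did either pass by DESeq2. In a fit of the compared libraries alone the Scramble-sgRNA decrease passed (−1.10, adjusted p 0.00876). Without a filter on low counts both passed (adjusted p 2.77e-06 and 8.94e-06).

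In proximal Cdx2-sgRNA organoids Muc1 and Muc4 rose. Muc1 went from 13 and 28 to 203 and 2602 reads, a log2 fold change of 6.08 (SE 1.12, with adjusted p at 0.00677). Without WENR-minus replicate 2 it was 3.74 and still passed (adjusted p 0.0287). Without WENR-plus replicate 2 it did not pass (adjusted p 0.0565). Muc4 went from 268 and 135 to 466 and 3005 reads, a log2 fold change of 3.10 (SE 0.71, with adjusted p at 0.0171). It was 1.62 without WENR-minus replicate 2 (adjusted p 0.131) and 2.64 without WENR-plus replicate 2 (adjusted p 0.13). Both genes were highest in the same library. In a fit of these 4 libraries alone neither passed (adjusted p 0.133 and 0.16). These were 2 of 5, with none lower, beside 3.42% of all genes higher and 2.98% lower. Muc20 had 14 and 0 reads in WENR-plus and 57 and 31 in WENR-minus. Muc2, Muc13 and Muc3 did not pass, with log2 fold changes of −0.33 (95% interval −2.15 to 1.5), −0.34 (−0.90 to 0.22) and −0.33 (−1.83 to 1.17).

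**Figure D4:**
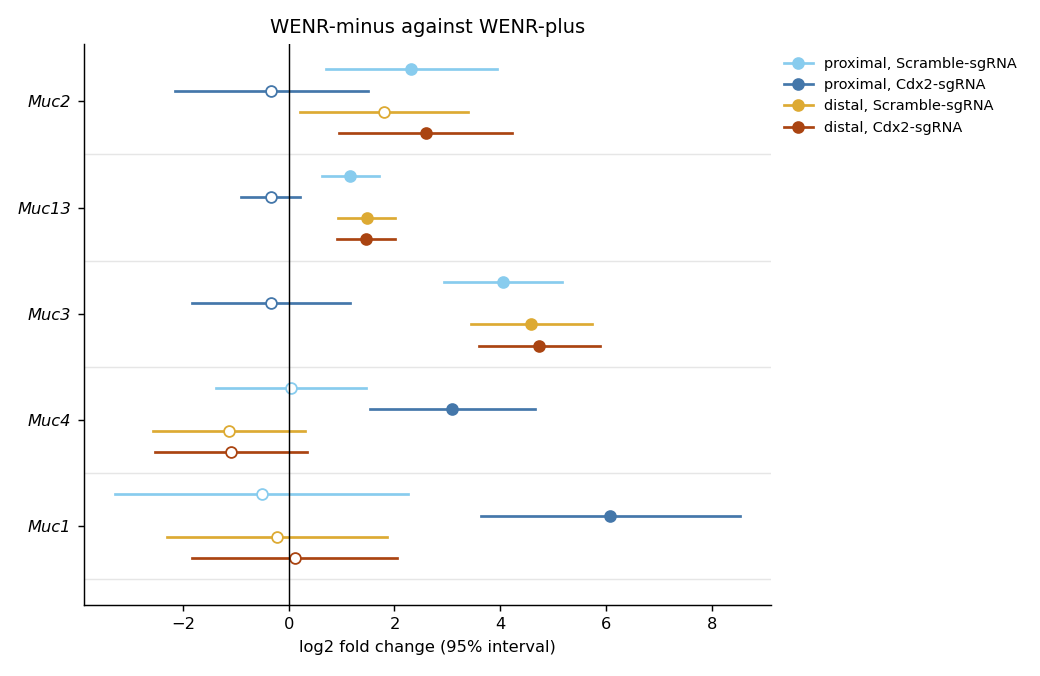
Log2 fold change of WENR-minus over WENR-plus (horizontal) for 5 mucins with its 95% interval, in each region and sgRNA. Filled points passed the test, and Muc16 and Muc20 are not shown. Muc3 and Muc13 rise in 3 of the 4 lines and not in proximal Cdx2-sgRNA organoids, where Muc1 and Muc4 rise.

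The difference between these responses was tested. In proximal organoids the medium effect of Cdx2-sgRNA less that of Scramble-sgRNA passed for 3 of 5 mucins, where 3.6% of all genes passed: Muc3 (−4.39, adjusted p 0.0225), Muc13 (−1.50, adjusted p 0.0407) and Muc1 (6.59, adjusted p 0.0468). For Muc2 it was −2.65 (adjusted p 0.192, or 0.0164 with a block for each culture), and for Muc4 3.06 (adjusted p 0.0916). Muc4 passed by DESeq2 (adjusted p 0.00776) and without Cdx2-sgRNA WENR-minus replicate 1 (3.76, adjusted p 0.0324). The Muc1 call was lost without any 1 of the libraries but proximal Cdx2-sgRNA WENR-minus replicate 1 (adjusted p 0.0701 to 0.157), and its value was 4.22 without replicate 2 of that group. The calls of Muc3 were lost in 5 of these 8 fits (adjusted p 0.064 to 0.101) and those of Muc13 in 6 (adjusted p 0.0665 to 0.14). In a fit of the compared libraries alone Muc1 (adjusted p 0.111) and Muc13 (0.0915) lost their calls, as did Muc13 with length-scaled counts (0.0509). In distal organoids 0 of 5 passed by edgeR, nor did any of the genes tested (0%), with 0 mucins at an unadjusted p under 0.05 and 0 by DESeq2.

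Cell type markers also moved with the medium. The goblet cell sum went from 715 to 1030 CPM in WENR-plus to 5070 to 6130 CPM in WENR-minus in proximal Scramble-sgRNA organoids. Of its 7 members 3 rose (Fcgbp, Clca1 and Zg16), 0 fell, and Spdef and Spink4 had log2 fold changes of 0.12 and −0.01. Colonocyte markers went from 206 to 260 CPM to 6780 to 10100 CPM there, and cycling cell markers from 1080 to 1250 CPM to 180 to 375 CPM. In distal organoids the goblet cell sum went from 799 to 1570 CPM to 5320 to 10100 CPM in Scramble-sgRNA and from 906 to 3840 CPM to 5320 to 14500 CPM in Cdx2-sgRNA. There 4 and 3 of the 7 members rose (the same genes, with Tff3 in Scramble-sgRNA) and 0 fell, with log2 fold changes of −0.49 and −0.87 for Agr2 and −0.57 and −1.20 for Spdef, which did not pass. Distal colonocyte markers went from 263 to 431 CPM to 7070 to 11200 CPM and from 435 to 654 CPM to 14900 to 16000 CPM. Distal cycling cell markers went from 1120 to 1300 CPM to 225 to 382 CPM in Scramble-sgRNA. They went from 923 to 1290 CPM to 92.4 to 173 CPM in Cdx2-sgRNA. In proximal Cdx2-sgRNA organoids the cycling sum was 518 to 623 CPM in WENR-plus and 546 to 654 CPM in WENR-minus. There the colonocyte sum went from 136 to 240 CPM to 519 to 1590 CPM, and the goblet cell sum from 33.6 to 47 CPM to 54.1 to 69.8 CPM, with 1 of the 7 colonocyte and 0 of the 7 goblet cell markers passing. The stem cell sum was lower in WENR-minus in all 4 lines, at 92.2 to 193 CPM against 324 to 546 CPM. Of its members Lgr5, Ascl2 and Axin2 fell in all 4 lines. Ephb2 fell in distal Cdx2-sgRNA alone, and Smoc2 in all lines but proximal Cdx2-sgRNA. The part of the cell types in the mucin responses was not tested.

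Genes that work with mucins were read from lists. Of 11 tested genes that make, process or accompany the Muc2 gel, 11 were lower with Cdx2-sgRNA in proximal organoids in WENR-minus. Their median log2 fold change was −5.92. In WENR-plus 9 were lower. Among all tested genes 12.1% and 8.94% were lower. In distal organoids 0 of 11 passed in either medium by edgeR, with 0 at an unadjusted p under 0.05 and 0 by DESeq2. There 2.24% of all genes were higher and 3% lower in WENR-minus, and 0.262% passed in WENR-plus. All 7 goblet cell markers are in this list. Named by size, the largest decreases in WENR-minus were those of Tff3, the trefoil peptide of goblet cells (−8.96), of Zg16, a lectin of the mucus (−8.21), and of Klk1, a kallikrein (−7.88). Of 7 tested brush border genes 5 fell in proximal organoids in WENR-minus, beside 12.1% of all genes, led by Cdhr5, the mucin-like protocadherin that links microvilli (−7.26), Myo1a (−4.85) and Cdhr2 (−3.78). In proximal organoids in WENR-plus the list summed to 863 to 998 CPM in Cdx2-sgRNA against 1100 to 1130 CPM in Scramble-sgRNA. In distal organoids it was higher in Cdx2-sgRNA, at 9030 to 10300 against 5520 to 6480 CPM in WENR-minus and 1320 to 1450 against 1200 to 1310 CPM in WENR-plus. All of these brush border genes except Ezr, 6 of 7, rose in WENR-minus in both Scramble-sgRNA lines, where 8.73% (proximal) and 12.2% (distal) of all genes rose.

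Of 11 tested enzymes that build mucin glycans, 4 fell in proximal organoids in WENR-minus, with a median of −0.96, beside 12.1% of all genes and a median of 0. The strongest was B4galnt2, which adds the terminal residue of the Sda antigen (−8.24, adjusted p 4.71e-08), followed by Galnt12 (−2.73), which starts O-glycans, and C1galt1c1, the chaperone of the core enzyme (−1.47). B4galnt2 was the only one of the 11 that passed in distal organoids, at −1.34 (adjusted p 0.00783) in WENR-minus, where 3% of all genes were lower. The median log2 fold change over all tested genes was between −0.106 and 0.132 in the 17 comparisons.

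Of 14 other mucin and mucin-like genes, 13 were found in the annotation used, and 5 of these had enough reads to be tested. The list summed to between 405 CPM (proximal Scramble-sgRNA, WENR-plus) and 2020 CPM (distal Cdx2-sgRNA, WENR-minus) in a library. Most of these reads are from genes of the list not described here, since Muc3a and Mucl3 reached at most 10.2 and 37.1 CPM. Muc5ac, the gastric mucin, and Muc15 and Mucl1 had 0 reads in all 16 libraries, Muc5b and Muc6 had at most 6 in any, and Muc19 and Mucl2 at most 2. Mucl3, a mucin-like gene, had at most 6 reads in Scramble-sgRNA libraries, but 500 to 638 in proximal and 156 to 363 in distal Cdx2-sgRNA libraries in WENR-minus. Like Muc16 and Muc20 it had enough reads only through the groups in which it was high, so no test is given. In proximal organoids it was at least 207-fold higher. Muc3a, annotated apart from Muc3 on the same chromosome, had 39 to 174 reads in Scramble-sgRNA and at most 8 in Cdx2-sgRNA libraries of both regions. In WENR-minus it was at least 50.6-fold lower in proximal and at least 12.6-fold lower in distal organoids. These values too are a description. How far reads can be shared between Muc3 and Muc3a was not examined, so that the level of either is uncertain.

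Across the 16 libraries, Muc2, Muc13 and Muc3 followed each other on the scale log2(CPM + 1), with Pearson's r of 0.94 for Muc2 and Muc13, 0.90 for Muc2 and Muc3 and 0.86 for Muc3 and Muc13. Muc20 had an r of −0.73 with Muc13, which rests on the proximal Cdx2-sgRNA libraries in which Muc20 had 14, 57 and 31 reads. In the other libraries it had 0 to 5 reads. The libraries are 2 of each of 8 groups, so that these values describe the group pattern. Of 12525 other genes, those most like Muc13 were Heph (0.995), Gm5485 and Syt7, and those most like Muc2 were Plcl2 (0.979), Tpsg1 and Adgrg7. Muc3 was nearest to AC117816.1 (0.987), Ceacam20 and A1cf, and Muc4 to Nacc1 (0.925), Wnk4 and Aggf1. Muc1 was nearest to Ppfibp2 (0.945), Ovol2 and Ttr, Muc16 to Hrnr (0.982), Slc34a2 and Arl4d, and Muc20 to Zfpm2 (0.968), Aqp3 and Vcam1. The values of Muc16 and Muc20, with medians of 2 and 1 reads, rest on the few libraries in which they were high.

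The mucin reads of a library show the pattern as a whole. The 7 genes held 0.144 to 0.434% of the reads in the 12 libraries of Scramble-sgRNA or distal organoids, and 0.00372 to 0.0351% in the 4 of proximal Cdx2-sgRNA organoids.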

How the data were processed

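RNA-seq reads were quantified by the authors with Salmon 1.1.0 on GENCODE vM23 transcripts. The deposited estimated counts (expected counts) per transcript are not scaled between libraries, and the deposited TPM and lengths come from the same tables. The labels list the molecule as genomic DNA, but the series is RNA-seq from a stranded total RNA kit. Of 140748 transcripts, 139864 were matched by identifier to GENCODE vM21 (GRCm38), an earlier release, and summed to 54123 genes. The others held at most 0.509% of a library. Mitochondrial ribosomal RNA made up 15.4 to 28%.

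Sums were rounded and fitted in R 4.3.3 with edgeR 4.0.16 (filterByExpr, TMM, glmQLFit with 1 coefficient per group over 16 libraries, 8 residual degrees of freedom, prior count 0.125, glmQLFTest). P-values were adjusted over 15289 genes by the Benjamini-Hochberg method in each of 17 contrasts. Calls needed adjusted p under 0.05 with log2 fold change beyond 1 in either direction. For a group with no library above 3 reads, a lower bound replaces the fold change. SE is the absolute log2 fold change over the square root of F. The pipeline was tested on simulated counts. Members and lists were chosen with earlier results of these data known. The text names the members, up to 3 list genes per direction with the largest called change, and the 3 genes with the highest Pearson correlation. Mucl3, Muc3a, Krt4 and Krt14 were singled out after their values were seen.

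Alternatives were DESeq2 1.42.0, RLE scaling, other filters, length-scaled counts, leaving out mitochondrial ribosomal RNA or single libraries, only the libraries compared, no limit on fold change and replicate blocks. Deviations from the group mean correlated between media of the same line with the same replicate number (0.431 to 0.658, 4 of 4 over 0.1), and less between other groups (−0.096 to 0.323, 11 of 24 over 0.1). Numbers were therefore taken to pair the media of a culture, and a block for each culture (4 residual degrees of freedom) was added after the data were seen.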

Additional observations from a re-analysis of the deposited data

Results flagged for a closer look

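Effects that differed between groups by a test of the difference itself are given here (edgeR, adjusted p under 0.05). The log2 effect of Cdx2-sgRNA in WENR-minus, proximal less distal, was −8.93 for Muc2, −8.08 for Muc3, −7.54 for Muc13 and 5.03 for Muc1. In WENR-plus it was −5.49 for Muc2, −3.55 for Muc3 and −6.05 for Muc13. The effect of WENR-minus in proximal organoids with Cdx2-sgRNA less that with Scramble-sgRNA was 6.59 for Muc1, −4.39 for Muc3 and −1.50 for Muc13. These proximal calls were lost in 7 (Muc1), 5 (Muc3) and 6 (Muc13) of the 8 fits that leave out 1 library, and the Muc1 value was 4.22 without Cdx2-sgRNA WENR-minus replicate 2. Without 1 library the regional call of Muc1 in WENR-minus was lost in 6 of 8 fits, and those of Muc2 and Muc3 in WENR-plus in 3 of 8 each. The regional differences of Muc13 passed in both media without any single library.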

How the results depend on the processing

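Counts here are over the 5 mucins that were tested. Of 800 recomputed values of 57 single-gene results, 716 kept their direction and side of the threshold, 51 lost the call, 26 gained one and 7 reversed. The count of mucins that passed stayed within 1.5 times in 222 of 248 recomputations. Without a filter on low counts it was 4 between media in distal Scramble-sgRNA, 1 for Cdx2-sgRNA in distal WENR-minus, 1 in distal WENR-plus, 1 and 2 between regions in Scramble-sgRNA in WENR-minus and WENR-plus, 5 for the proximal difference of medium effects and 1 for the difference of region effects between media. In a fit of the compared libraries alone it was 0 between media in proximal Cdx2-sgRNA, 4 in distal Scramble-sgRNA, 1 between regions in Scramble-sgRNA in each medium and 1 for the proximal difference of medium effects. DESeq2 gave 1 between regions in Scramble-sgRNA in each medium, and no limit on fold change gave 1 in WENR-minus. At least 10 counts in every library, which removes Muc1, gave 1 between media in proximal Cdx2-sgRNA. Apart from this filter the cause was not tested.

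Leaving out single libraries gave 0 to 2 for proximal Cdx2-sgRNA between media, 1 to 3 for the regional difference in WENR-plus and 0 to 4 for the proximal difference of medium effects. Values that reversed, none of which passed, did so when 1 library was left out. Muc3 between media in proximal Cdx2-sgRNA then ranged from −0.72 to 0.24 (the last without WENR-plus replicate 2). In distal WENR-minus, Muc2 ranged from −0.41 to 0.79 and Muc3 from −1.02 to 0.53 (−0.41 and 0.53 without Cdx2-sgRNA replicate 1). In distal WENR-plus, Muc2 ranged from −2.51 to 0.38 (0.38 without Cdx2-sgRNA replicate 2), and Muc3 from −0.50 to 0.23 (0.23 and 0.10 without replicate 1 of Scramble-sgRNA or Cdx2-sgRNA). Muc1 between regions in Cdx2-sgRNA in WENR-minus ranged from −0.049 (without proximal replicate 2) to 4.16. With the replicate number as a block over all libraries the counts were as in the main analysis, for example 4 for proximal WENR-minus. The block for each culture changed the calls of Muc2 given beside the results and no other. Muc16 and Muc20, with medians of 2 and 1 reads, are limited by depth.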
